A study of Homo sapiens with 15 samples.

Results

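Directly adjacent CpGs are those written CGCG on either strand, where the cytosines of neighbouring CpGs lie 2 bp apart with no base between the dinucleotides. Of 27852739 CpGs on the 22 autosomes of hg38, 1361585 (4.889%) had their nearest other CpG exactly 2 bp away. They were compared with the 6031473 CpGs (21.65%) whose nearest other CpG was 3 to 8 bp away, called near CpGs here. Membership of a CpG was set by its position in the genome alone, although the 2 sets were chosen with earlier results of these data known. The adjacent CpGs formed 703720 CGCG pairs in 657865 uninterrupted runs. Runs of exactly 2 CpGs held 91.14% of members, runs of 3 held 7.038%, and the longest run held 13.

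The libraries came from HCT116, an established line of colorectal carcinoma epithelial cells. The cells carried a short hairpin RNA (shRNA), induced by doxycycline, against UHRF1 (3 clones, Cl.3, Cl.6 and Cl.9) or against DNMT1 (R1 and R2, which are 2 bulk populations). Libraries were made at Baseline (day 14, no doxycycline), at Knockdown (day 14, 10 ng/mL doxycycline throughout) and at Recovery (day 28, with doxycycline withdrawn after day 14), which gave 15 libraries in 6 groups. All cells, Baseline included, carried an integrated shRNA, each shUHRF1 population was 1 clone, and the shDNMT1 populations were uncloned and held in a separate count table. Effects of shRNA, cloning and table therefore cannot be told apart, and the depletion of either protein was not measured in these files.

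When DNA is copied, the new strand starts without methyl groups, and each CpG passes through a hemimethylated state. UHRF1 recognises hemimethylated CpGs with its SRA domain, which flips the methylated cytosine out of the helix, and marks histone H3 and other proteins with ubiquitin. DNMT1, the maintenance methyltransferase, is recruited by these marks and methylates the new strand, and can move along DNA from one CpG to the next. The comparison asked whether CpGs that touch each other kept their methylation differently from CpGs that are merely close when either protein was depleted.

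The pairs were unevenly spread over sequence contexts. The 8 most frequent contexts of 12 bases, CGCG with 4 bases on either side and both strands merged, made up 19.38% of pairs (136369), although 31702 contexts occurred. They are shown from the most to the least frequent because they describe where in the genome the adjacent pairs sit, with the pair itself in capitals.
Context 1: agatCGCGccac
Context 2: ccacCGCGcccg
Context 3: caggCGCGgtgg
Context 4: ccacCGCGccca
Context 5: agatCGCGccat
Context 6: caggCGCGtgcc
Context 7: ggcaCGCGccac
Context 8: caggCGCGcgcc
Context 1 was found at 42918 pairs (6.099% of all), context 2 at 36185 (5.142%), context 3 at 19045, context 4 at 17460, context 5 at 10746, context 6 at 4109, context 7 at 3703 and context 8 at 2203.
By their bases, contexts 1 to 7 can only lie in runs of 2. Context 8 spells a further CpG beside the pair, so its pairs lie in longer runs.

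Adjacent CpGs lay in denser sequence than near CpGs. The median number of other CpGs within 100 bp was 9 for adjacent CpGs, 7 for near CpGs and 3 for all autosomal CpGs. Promoters of protein-coding genes (from 1 kb before the 5′ end to 100 bp past it) held 18.51% of adjacent, 11.54% of near and 5.375% of all autosomal CpGs. Introns held 43.55% of adjacent CpGs, intergenic sequence 24.3% and exons 13.64%. None of the adjacent CpGs can have A or T on both sides, since the partner supplies a G or C, whereas 14.58% of near CpGs did, and this difference in flanking bases was taken up in a weighted comparison.

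Total autosomal reads over CpGs ranged from 309268341 to 577680690 per library, and the median depth from 8 to 17 reads at adjacent CpGs and from 9 to 17 at near CpGs. At least 5 reads were found at 71.9% to 88.4% of adjacent CpGs, and only these were used, with 5 reads in each library compared. Methylation (mC) was computed per CpG as the methylated share of the reads covering it. The Baseline library of Cl.6 stood apart in 1 respect, a mC of 2.83% at adjacent CpGs with Baseline mC below 0.2, against 0.877% to 1.08% in the Baseline libraries of the other 4 populations. Without Cl.6, the difference between adjacent and near CpGs described next was 7.81 points under shUHRF1 at Knockdown and 4.87 points at Recovery.

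At Baseline, most adjacent CpGs were either highly methylated or unmethylated. In Cl.3, 68.9% had a mC of 0.85 or more, 7.27% lay from 0.2 to 0.85 and 23.8% were below 0.2, against 72.0%, 11.2% and 16.8% of near CpGs. The share from 0.2 to 0.85 was lower at adjacent than at near CpGs in each population, from 7.13% to 8.49% against 11.2% to 14.3%. Unmethylated regions called by the authors at Baseline (UMRs) held 23.4% to 24.2% of adjacent CpGs and 15.7% to 17.0% of near CpGs. Cl.9, whose counts stood in a table of their own, also stood apart at Baseline. Partially methylated domains called by the authors held 10.1% of its adjacent CpGs, against 16.3% to 21.1% in the other populations.

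At highly methylated CpGs, those with a Baseline mC of 0.85 or more, adjacent CpGs lost less methylation than near CpGs at Knockdown in every population. Under shUHRF1, adjacent CpGs changed by -4.44, -8.58 and -13.8 percentage points in Cl.3, Cl.6 and Cl.9, against -9.08, -14.7 and -24.8 points at near CpGs. Under shDNMT1 the change was -29.4 points in R1 and -30.6 points in R2, against -37.3 and -38.4 points. The 2 sets of values overlap between clones, which lost very different amounts, but within each population the adjacent CpGs were the less affected set. The adjacent-minus-near difference was 4.64, 6.15 and 10.98 points in the clones (mean 7.25 ± 3.31 points, SD, n = 3) and 7.89 and 7.79 points in the bulk populations (mean 7.84 ± 0.0684 points, SD, n = 2). It was above 0 in 5 of 5 populations (exact two-sided sign-flip permutation p = 0.0625), which is the smallest value that 5 populations allow, while 3 and 2 populations cannot go below 0.25 and 0.5.

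**Figure D1:**
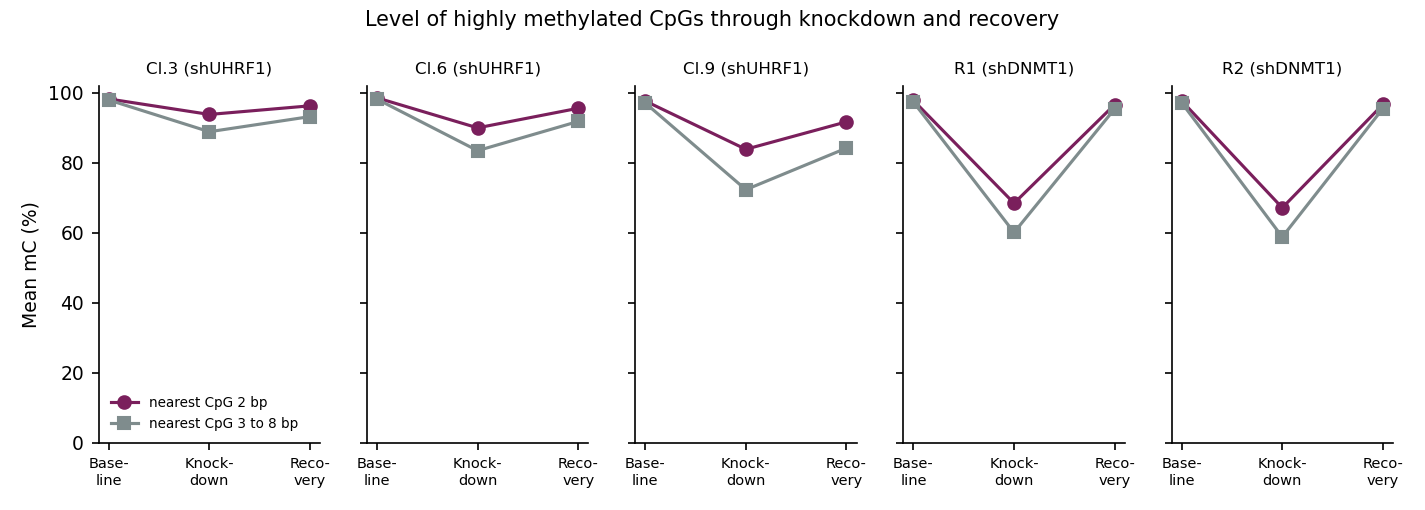
Mean mC in percent (vertical axis) of CpGs with a Baseline mC of 0.85 or more at Baseline, Knockdown and Recovery, in 1 panel per population, for adjacent CpGs (circles) and near CpGs (squares). The 2 sets start within 1 point of each other, the adjacent CpGs stay higher at Knockdown in all 5 panels, and by Recovery the sets nearly meet in R1 and R2 but not in Cl.9.

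In levels, adjacent CpGs of this class stood at 93.9%, 90.03% and 83.9% at Knockdown in Cl.3, Cl.6 and Cl.9, where near CpGs stood at 88.9%, 83.5% and 72.4%. Levels under shDNMT1 were 68.5% and 67.2%, against 60.1% and 58.8%. Cl.3 thus kept most of its methylation at adjacent CpGs, and both bulk populations had the lowest levels.

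The background of the comparison was measured by putting the Baseline library of another population of the same shRNA in the place of the Knockdown library. The adjacent-minus-near difference was then 0.307 to 1.66 points when the class came from the first library. With the class from the other populations, the stand-in among them, it was -0.919 to 0.124 points. All of these were smaller than the smallest difference at Knockdown.

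The share of highly methylated CpGs whose mC fell by 0.3 or more gave the same order. Adjacent CpGs were called at 2.11%, 4.86% and 12.5% in the 3 clones (Cl.3, Cl.6, Cl.9), against 7.23%, 14.2% and 33.9% at near CpGs and a background over all highly methylated autosomal CpGs of 16.1%, 27.6% and 53.9%. In the bulk populations the share was 45.2% and 47.9% at adjacent CpGs, 64.9% and 67.2% at near CpGs and 77.1% and 78.5% over all. The mean share was 6.49% ± 5.38 (SD, n = 3) against 18.4% ± 13.9 under shUHRF1 and 46.6% ± 1.95 (SD, n = 2) against 66.0% ± 1.64 under shDNMT1. In each of the 5 populations adjacent CpGs were therefore called less often than near CpGs and less often than the background.

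By single distances, the largest step lay between 2 and 3 bp. In Cl.9 the mean change was -13.8 points at 2 bp and -23.98 points at 3 bp, just outside the limit of the rule, and it then stayed between -25.8 and -23.98 points up to 8 bp. In Cl.3 it went from -4.44 to -8.46 points and in Cl.6 from -8.58 to -14.1 points over the same step. In R1 and R2 it went from -29.4 to -36.8 points and from -30.6 to -37.7 points. From 3 to 8 bp the values of a population lay within 2 points of one another, so neighbours in this range were nearly alike. Beyond 8 bp the loss was larger, with a smaller value at 17 bp than at 16 or 18 bp in each population, and reached -15.2 points in Cl.3, -37.6 points in Cl.9 and -44.8 points in R1 at 19 bp.

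**Figure D2:**
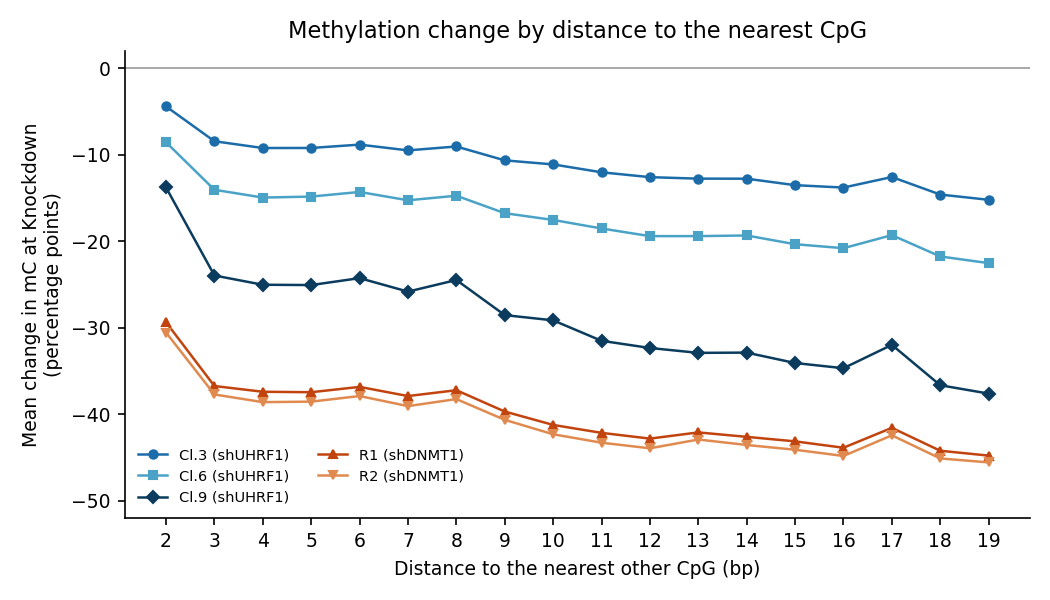
Mean change in mC from Baseline to Knockdown in percentage points (vertical axis) of CpGs with a Baseline mC of 0.85 or more, by distance to the nearest other CpG in bp (horizontal axis), with 1 line per population. Each line drops between 2 and 3 bp, is nearly flat to 8 bp and lies lower at 19 bp, with a point above its neighbours at 17 bp.

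The difference was smaller once flanking bases were matched. Adjacent CpGs carry a G or C from the partner, so near CpGs were reweighted to the same bases immediately before and after the CpG. The difference was then 5.42 ± 2.49 points under shUHRF1 (SD, n = 3) and 5.75 ± 0.0133 points under shDNMT1 (SD, n = 2). With the number of other CpGs within 100 bp matched as well it was 5.46 and 5.94 points. At single distances after weighting, adjacent CpGs kept 3.595 points more than CpGs at 3 bp in Cl.3, 4.84 in Cl.6, 8.98 in Cl.9, 6.97 in R1 and 6.97 in R2. Against CpGs at 8 bp the weighted differences were 2.88, 4.06, 6.73, 4.69 and 4.58 points. Leaving out the pairs of the 8 most frequent contexts, a choice made after seeing the data, gave 6.42 and 6.55 points for shUHRF1 and shDNMT1.

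The difference was regular over the genome. It was above 0 on 22 of 22 autosomes in each population, from 4.03 to 5.35 points in Cl.3, from 10.3 to 12.1 points in Cl.9 and from 6.72 to 8.68 points in R1. Among windows of 100 kb with at least 5 highly methylated CpGs of either kind, adjacent CpGs changed less in 92.9% of 24090 windows in Cl.3, in 95.003% in Cl.6, in 98.8% in Cl.9 and in 94.5% in R1 and in R2. In Cl.9 the quartiles of the windows were 8.47 and 15.3 points and the median 11.5 points.

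A pair that stands alone has no further CpG close, although flanking bases still differ between lone adjacent and lone near pairs. There were 88486 lone adjacent pairs and 577582 lone pairs 3 to 8 bp apart, with no other CpG within 35 bp of either member. They held 13% of adjacent and 19.15% of near CpGs. Lone adjacent CpGs of the highest class changed by -4.98, -9.79 and -15.5 points in the clones and by -30.2 and -31.1 points under shDNMT1. Lone pairs at 3 to 8 bp changed by -10.2, -16.5 and -27.6 points and by -38.4 and -39.2 points. The difference averaged 7.99 ± 3.61 points (SD, n = 3) under shUHRF1 and 8.15 ± 0.0494 points (SD, n = 2) under shDNMT1, above 0 in 5 of 5 populations (exact sign-flip permutation p = 0.0625). With near CpGs weighted to flanking bases it was 5.77 ± 2.60 points and 5.71 ± 0.0362 points. Between 3 and 8 bp the lone pairs of Cl.9 ranged from -28.5 to -26.8 points without a trend that followed distance.

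**Figure D3:**
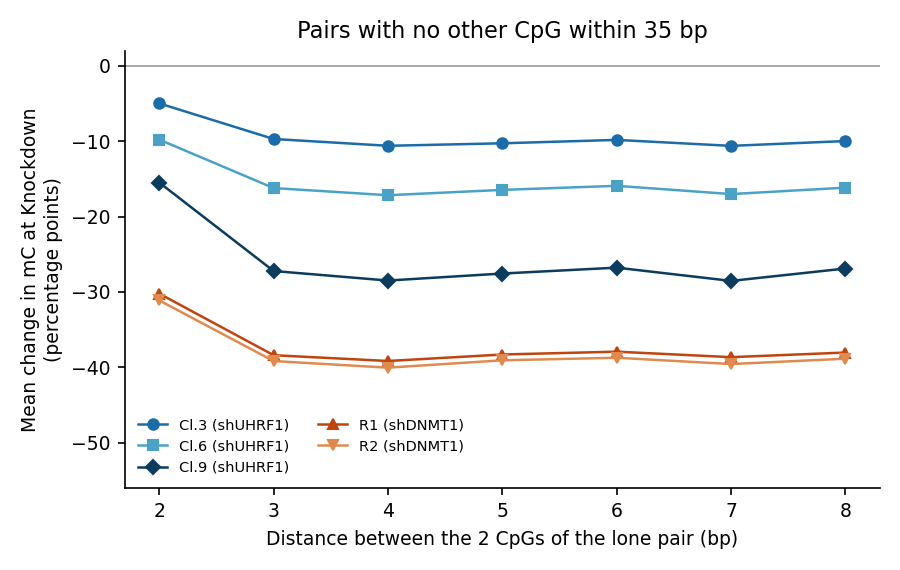
Mean change in mC from Baseline to Knockdown in percentage points (vertical axis) at CpG pairs with no further CpG within 35 bp, by the distance between the 2 CpGs in bp (horizontal axis), for CpGs with a Baseline mC of 0.85 or more. The values, not weighted to flanking bases, lie higher at 2 bp than at 3 to 8 bp in each population.

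The size of the difference relative to the overall loss differed between the shRNAs in these populations. Dividing the adjacent-minus-near difference by the mean change over both sets gave -0.561, -0.450 and -0.481 for the clones and -0.220 and -0.211 for the bulk populations, where a value further below 0 means that adjacent CpGs were spared more in proportion. The groups did not overlap, and their means differed by -0.282 (exact two-sided permutation p = 0.1, the smallest that the 10 splits of 3 against 2 populations allow). On the log odds scale the corresponding difference was -0.155. The loss itself did not overlap either, with near CpGs at -24.8 to -9.08 points in the clones and at -37.3 and -38.4 points in R1 and R2. The part of this depth of loss in the relative difference was not tested. In percentage points the differences of the 2 shRNAs overlapped, with 10.98 in Cl.9 above and 4.64 in Cl.3 below the bulk populations.

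Adjacent CpGs with intermediate methylation behaved in the same direction. In the class from 0.2 to 0.85 they changed by -3.69, -11.1 and -15.2 points in the clones, against -8.94, -16.4 and -25.4 points at near CpGs. The bulk populations changed by -21.8 and -23.6 points, against -28.0 and -29.6 points. The difference was 6.93 ± 2.85 points (SD, n = 3) and 6.07 ± 0.168 points (SD, n = 2), above 0 in 5 of 5 populations (exact sign-flip permutation p = 0.0625).

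Adjacent CpGs of the lowest class, chosen for a low Baseline mC, had little methylation to lose. In the class below 0.2, adjacent CpGs stood at 0.817% to 1.08% mC at Knockdown over the 5 populations, and near CpGs at 0.985% to 1.497%. The adjacent-minus-near difference was 0.237 ± 0.244 points under shUHRF1 and 0.332 ± 0.0573 points under shDNMT1. Weighting near CpGs to flanking bases and density left 0.0897 and 0.0983 points. With the class taken from the other populations it was instead 0.766 points under shUHRF1 and 0.817 points under shDNMT1. In the clones the unweighted difference was 0.325 points without Cl.6, whose Baseline library stood apart in this class, and 0.0973 points without Cl.9. In the same libraries, highly methylated adjacent CpGs read 67.2% to 93.9% at Knockdown. Bisulfite conversion at them was not tested.

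At Recovery, adjacent CpGs of the highest class were closer to Baseline than near CpGs. They remained -1.98, -2.98 and -5.95 points from Baseline in Cl.3, Cl.6 and Cl.9, against -4.76, -6.37 and -12.9 points at near CpGs. Under shDNMT1 they remained -1.16 and -0.972 points away, against -1.91 and -1.60 points. The difference was 4.38 ± 2.252 points (SD, n = 3) and 0.688 ± 0.0903 points (SD, n = 2), above 0 in 5 of 5 populations (exact sign-flip permutation p = 0.0625). With the bulk Baseline libraries exchanged, the background was 0.307 and 0.412 points, below the Recovery differences of 0.752 and 0.625 points in R1 and R2. With the clone Baseline libraries exchanged it was 0.463 to 1.66 points, below the 2.78, 3.39 and 6.95 points of Cl.3, Cl.6 and Cl.9. After weighting near CpGs to the flanking bases, the Recovery difference was 2.69 ± 1.32 points under shUHRF1 and 0.359 ± 0.0368 points under shDNMT1, the latter within the unweighted bulk background. With the class taken from the other populations the shDNMT1 difference was 0.336 points. The bulk background classed in that way was -0.0540 and -0.102 points, but there the stand-in library helped to set the class. The 2 are therefore not classed alike.

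Part of the lost methylation had returned by Recovery, and the part was larger at adjacent CpGs. Adjacent CpGs of the highest class regained 55.6%, 65.4% and 56.9% of their loss in the clones, against 47.5%, 56.8% and 48.0% at near CpGs, a difference of 8.55 ± 0.386 points (SD, n = 3). In R1 and R2 they regained 96.1% and 96.8%, against 94.9% and 95.8%, a difference of 1.07 ± 0.146 points (SD, n = 2). The exact sign-flip permutation p was 0.25 and 0.5, the smallest for these numbers of populations. The Baseline reads that set the class also enter this share. With the bulk Baseline libraries exchanged, adjacent CpGs of the class already changed by -0.683 and -0.529 points and near CpGs by -1.09 and -0.837 points. The part of this selection in the regained shares was not tested, and the shares were not weighted to flanking bases. In the class below 0.2, mC rose from Baseline to Recovery by 0.518 and 0.357 points at adjacent CpGs of R1 and R2 and by 0.935 and 0.644 points at near CpGs. In Cl.3, Cl.6 and Cl.9 the adjacent CpGs of this class changed by 0.314, -1.69 and -0.0561 points. The adjacent-minus-near difference of this class at Recovery was below 0 in 4 of 5 populations (mean -0.117 ± 0.286 points, SD, n = 5, exact sign-flip permutation p = 0.375). At Knockdown the unweighted difference was above 0 in all 5. With near CpGs weighted to flanking bases, it was 0.149 ± 0.170 points under shUHRF1 at Knockdown (SD, n = 3) and not above 0 in every clone (exact sign-flip permutation p = 0.5).

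Long runs of adjacent CpGs kept more methylation than simple pairs. In Cl.9 the change at Knockdown was -14.0 points in runs of 2, -10.3 in runs of 3, -7.90 in runs of 4 and -5.73 in runs of 5 or more. In R1 it was -29.6, -26.2, -20.5 and -16.4 points. The same order of the 4 run lengths was found in each of the 5 populations, and runs of 5 or more held 2886 to 3732 highly methylated CpGs per population. At Recovery this order was kept in Cl.9 but not in the other 4 populations. In R1 and R2, runs of 5 or more remained -2.04 and -2.06 points from Baseline and runs of 2 remained -1.15 and -0.962 points away. The run lengths were compared as a description, with no test.

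**Figure D4:**
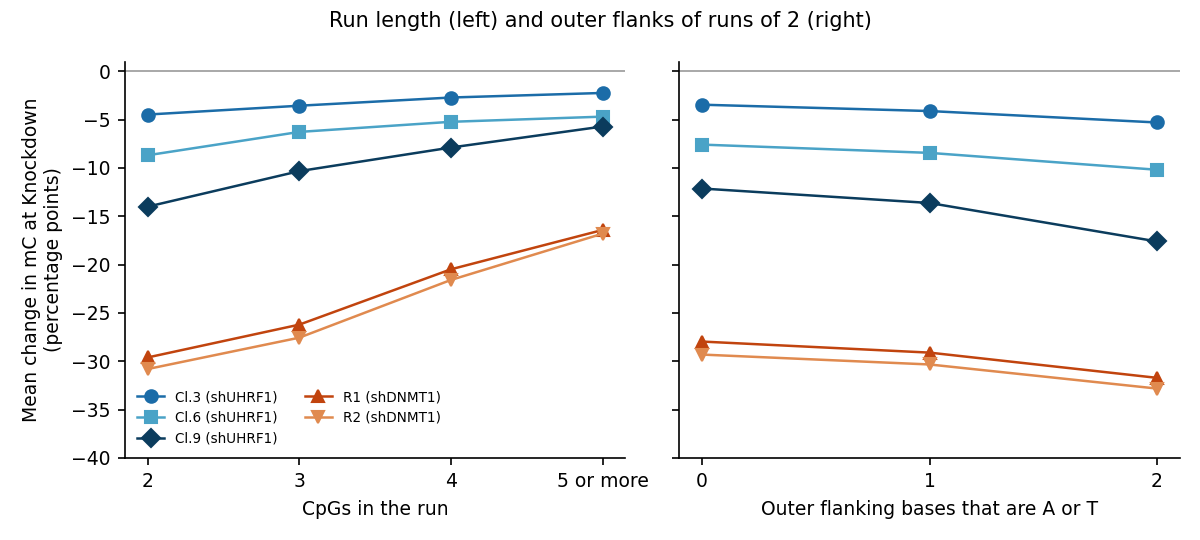
Mean change in mC from Baseline to Knockdown in percentage points (vertical axis) of adjacent CpGs with a Baseline mC of 0.85 or more, by the number of CpGs in the run (left) and, for runs of 2, by how many of the outer flanking bases are A or T (right), with 1 line per population. Loss shrinks with run length and grows with A or T at the outer flanks in each line.

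The bases just outside the pair went with the size of the loss. The 10 strand-merged combinations of outer bases were compared over all pairs, and the extremes are shown with the pair in capitals. Pairs in longer runs, which lost less, are included, and there an outer G or C can belong to a further CpG. This can hold for the smallest loss shown but not for the largest. The parts of run length and outer base were not tested.
Smallest loss: gCGCGc
Largest loss: tCGCGa
Pairs of the first kind changed by -2.94, -6.41 and -9.78 points in the clones and by -24.6 and -25.6 points under shDNMT1 at Knockdown. Pairs of the second kind changed by -5.56, -10.3 and -17.9 points and by -32.8 and -34.1 points. The other 8 combinations had means between -11.2 and -7.24 points under shUHRF1 and between -32.6 and -27.4 points under shDNMT1. These kinds also differed in Baseline mC, 58.2% for the first and 76.8% for the second under shUHRF1, where all their pairs are counted.

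Among runs of exactly 2, pooled pairs with A or T on both outer sides lost more than pooled pairs with G or C on both. Single combinations did not all follow this order, since under shDNMT1 the pairs flanked by C and G (cCGCGg) changed by -31.9 and -33.0 points and those flanked by A and T (aCGCGt) by -30.6 and -31.6 points in R1 and R2. The change was -11.0 ± 6.20 points against -7.74 ± 4.34 points under shUHRF1 (SD, n = 3), and -32.3 ± 0.784 points against -28.6 ± 0.952 points under shDNMT1 (SD, n = 2). The paired difference was -3.30 ± 1.92 points and -3.64 ± 0.168 points, below 0 in 3 of 3 clones and 2 of 2 bulk populations (exact sign-flip permutation p = 0.25 and 0.5, the smallest possible). Even the pairs with A or T on both outer sides, at -5.31, -10.2, -17.6, -31.7 and -32.8 points in Cl.3, Cl.6, Cl.9, R1 and R2, changed less than near CpGs as a whole. The 2 are not measured alike. Pairs were classed by the mean of their 2 CpGs, with 5 reads at every stage. Near CpGs were classed singly and were not weighted to flanking bases here.

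Pooled, the 8 most frequent contexts were highly methylated and lost less than other adjacent pairs. Their Baseline mC was 94.2% ± 0.548 (SD, n = 3) under shUHRF1 and 93.7% ± 0.0498 (SD, n = 2) under shDNMT1, against 66.2% ± 3.55 and 63.6% ± 0.620 for the remaining pairs. Among highly methylated pairs the 8 contexts changed by -3.00, -6.76 and -9.98 points in the clones, against -4.32, -8.74 and -14.6 points at the remaining pairs. The bulk values were -25.7 and -27.0 points, against -29.8 and -31.0 points. Context 1 changed by -3.00, -6.44 and -9.60 points in the clones and by -24.9 and -26.2 points in the bulk populations, and context 2 by -2.83, -6.52, -9.54, -24.99 and -26.4 points in the same order. Contexts 6 and 7 lost the most of the 8, with -8.10 ± 4.50 and -7.27 ± 4.01 points under shUHRF1 and -30.9 ± 0.838 and -30.0 ± 0.987 points under shDNMT1. Under shDNMT1, context 6 lost more than the pairs outside the 8 contexts, which changed by -30.4 ± 0.825 points. Context 8 was the exception in Baseline mC, at 87.1% ± 0.648 and 86.7% ± 0.2997. Reads of repeated sequence can be placed at a wrong copy, which was not tested, and the median depth at Baseline was 18, 20, 32, 20 and 27 reads per pair in the 8 contexts against 16, 18, 33, 19 and 26 outside them in Cl.3, Cl.6, Cl.9, R1 and R2. By context it ran from 12 reads (context 8, Cl.3) to 44 reads (context 3, Cl.9).

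Domain and gene annotation shifted the level of loss without removing the difference. In highly methylated domains (HMDs) of the Baseline library, adjacent CpGs of the highest class changed by -3.71, -7.27, -11.7, -28.3 and -29.5 points in Cl.3, Cl.6, Cl.9, R1 and R2, against -7.77, -12.9, -22.2, -36.2 and -37.4 points at near CpGs. In partially methylated domains (PMDs), long stretches where methylation is lost in many cancer cells, they changed by -6.69, -12.9, -21.5, -32.1 and -33.0 points, against -14.3, -22.5, -37.5, -41.0 and -41.7 points. Adjacent CpGs in PMDs of a clone therefore lost about as much as near CpGs in its HMDs. At Baseline, adjacent CpGs of PMDs were also more methylated than near CpGs there, from 90.9% to 92.4% against 83.0% to 85.0%.

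Among gene annotations, highly methylated adjacent CpGs in promoters lost the most. They changed by -7.28, -11.3 and -17.5 points in the clones and by -39.6 and -40.1 points under shDNMT1, against -12.2, -17.2, -28.2, -44.0 and -44.9 points at near CpGs of promoters. In introns, adjacent CpGs changed by -4.15, -8.17, -13.0, -28.2 and -29.3 points. These promoter CpGs were a minority, since adjacent CpGs in promoters had a mean Baseline mC of 18.1% to 22.3% and those in introns of 83.0% to 86.2%. Adjacent CpGs with 16 or more other CpGs within 100 bp, at -6.38, -9.82, -16.6, -37.1 and -38.1 points, lost more than those with 4 to 7, at -4.16, -8.23, -12.98, -28.2 and -29.1 points. In the clones the sparsest adjacent CpGs, with 0 or 1 other CpG, also lost more than those with 4 to 7, at -5.01, -9.76 and -15.4 points, while in the bulk populations they changed by -27.8 and -28.5 points.

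The 2 CpGs of an adjacent pair had more similar levels than the CpGs of wider pairs, at Baseline as well as at Knockdown. Over all pairs at Baseline, mates differed by 30 points or more in 3.61%, 3.47%, 3.53%, 2.79% and 2.66% at 2 bp (Cl.3, Cl.6, Cl.9, R1, R2). The values at 3 bp were 5.70%, 5.34%, 5.54%, 3.64% and 3.31%. Pairs with both CpGs at 0.85 or more cannot differ that much at Baseline, by selection. Where both CpGs had a Baseline mC of 0.85 or more, the mates differed at Knockdown by 30 points or more in 0.679%, 0.778% and 1.04% of pairs in the clones and in 1.19% and 1.24% in the bulk populations. At 3 bp these shares were 2.27%, 2.47%, 3.50%, 2.51% and 2.59%, and at 8 bp 3.15%, 3.29%, 5.29%, 4.57% and 4.78%. The mean absolute difference between mates at 2 bp was 4.89 points in Cl.3, 6.70 in Cl.9 and 7.92 in R1, against 7.34, 9.65 and 9.49 points at 3 bp. The shares rest on 296433 to 369269 pairs at 2 bp per library.

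**Figure D5:**
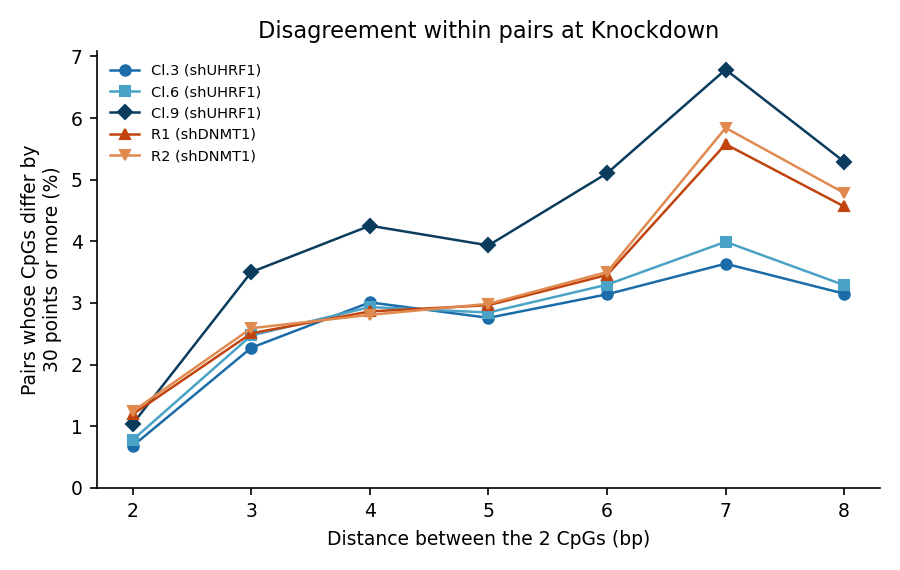
Share of pairs in percent (vertical axis) whose CpGs differ in mC by 30 points or more at Knockdown, by the distance between the 2 CpGs in bp (horizontal axis), where both had a Baseline mC of 0.85 or more, with 1 line per population. The share is lowest at 2 bp and highest at 7 bp in each line. The choice of pairs excludes such a difference at Baseline.

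Mates share reads, so their counts are not independent. The depths of the mates were equal at 33.8% to 57.1% of pairs at 2 bp and at 21.1% to 37.2% at 8 bp. The squared difference between mates relative to the binomial expectation for independent reads was 0.738 in Cl.3, 0.650 in Cl.9 and 0.489 in R1 at 2 bp, against 0.866, 0.896 and 0.625 at 3 bp. Across pairs, which share library and depth, the changes of the mates from Baseline to Knockdown correlated with r of 0.458, 0.606, 0.718, 0.774 and 0.785 in Cl.3, Cl.6, Cl.9, R1 and R2 at 2 bp, and of 0.474, 0.596, 0.701, 0.707 and 0.711 at 3 bp. The value at 2 bp was thus below that at 3 bp in Cl.3 and above it in the other 4 populations, while at Recovery it was below that at 3 bp in all 3 clones. How much of the closer agreement comes from shared reads was not tested.

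Methylated and unmethylated reads were summed over all adjacent CpGs of each 100 kb window, highly methylated or not, and tested with edgeR's quasi-likelihood test and Benjamini-Hochberg adjustment over 105601 windows of 4 distance classes. Of 25071 windows of adjacent CpGs, 18108 (72.2%) were called lower at Knockdown under shUHRF1 and none higher, against 92.8% lower and 0% higher over all classes. None was higher at an unadjusted p under 0.05, and limma called 6 higher. Under shDNMT1, 24003 (95.7%) were called lower and 3 higher, against 99.0% and 0.00284% over all classes. The median change in the log2 ratio of methylated to unmethylated reads was -1.08 and -2.19 in adjacent windows under shUHRF1 and shDNMT1, against -1.31 and -2.15 in near windows. This scale takes in CpGs of every Baseline class, and under shDNMT1 the order of the medians depended on the filter. In windows with at least 10 CpGs and 200 reads, the median change under shDNMT1 was -1.77 in adjacent and -2.15 in near windows. Adjacent windows held a median of 31 CpGs and 421 reads, where near windows held 143 CpGs and 1895 reads per library. The part of this lower depth in the smaller share called was not tested.

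At Recovery, 7505 windows of adjacent CpGs (29.9%) were lower than Baseline under shUHRF1 and 35 higher, against 75.5% and 0.0341% over all classes. Without the population block the count was 1661 (6.63%, against 41.4% over all classes), and without Cl.9 it was 3639 (14.5%, against 67.7%). Under shDNMT1 no window of adjacent CpGs was called in either direction, against 0.000947% lower and 0% higher over all classes. At an unadjusted p under 0.05, edgeR gave 348 lower and 132 higher (793 and 140 of the 105601 windows of all classes). Without Cl.9 these were 603 and 237 (3898 and 285 over all classes), and 1 adjacent window was called lower. By limma, 2 were called lower. The edgeR fit took clones and bulk populations jointly, and the part of the clones' spread in the count of 0 was not tested. With only 2 bulk populations, that count does not show a full return to Baseline. In the contrast of the Knockdown changes, 12411 windows of adjacent CpGs (49.5%) fell more under shDNMT1 than under shUHRF1 and 6 fell less, against 62.7% and 0.00568% over all classes. That count was 0 without the population block. It was 3081 (12.3%, against 12.6% over all classes) without R1 and 1255 (5.01%, against 4.08%) without R2, so the gap between adjacent and all windows was not kept.

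Single pairs show the range behind these means. Among 84452 runs of exactly 2 with at least 20 summed reads in every library and a Baseline mC of 0.85 or more in all populations, the mean Knockdown change over the clones had a median of -6.67 points and a 1st percentile of -29.5 points. The pairs shown were chosen by value and carry no test. They are 1 of those with the smallest mean fall, the 3 with the largest loss and 1 with a large loss left at Recovery. Sequences are from hg38, plus strand, with the pair in capitals. The intervals are 95% Wilson intervals that treat the reads summed over both CpGs as independent. A read over both CpGs counts for each, so the intervals and upper limits are too narrow even for counting error.
Pair near ELOVL4 (chr6:79891584-79891587): gtcctgaggtgaCGCGcatcctcagctt
Pair in RAB33B (chr4:139454832-139454835): acagtgaaattgCGCGagaatggaaaat
Pair upstream of TMCO4 (chr1:19800648-19800651): gagcacctactaCGCGccaggtacagtt
Pair in BPIFB1 (chr20:33299475-33299478): ctgcatgggggaCGCGgctttcagtctg
Pair near CDH6 (chr5:31358923-31358926): cgtgcgccaccaCGCGgctaatttttat

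The pair shown for the smallest mean fall rose by 1.77 points on average over the 5 populations at Knockdown. It was methylated on most reads at each stage. The intergenic pair 23230 bp from ELOVL4, a fatty acid elongase gene, read 93.2% to 100% at Baseline and 94.6% to 100% at Recovery over the 5 populations. At Knockdown it read 100% in Cl.3, Cl.6, R1 and R2 and 89.2% in Cl.9 on 37 reads (75.3% to 95.7%). Its next CpG was 164 bp away.

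The pairs with the largest loss were left with little methylation at Knockdown. The pair in an intron of RAB33B, a Golgi-associated GTPase, fell from 95.7%, 100% and 94.2% at Baseline to 14.7%, 20.5% and 0% at Knockdown in the clones, where the value in Cl.9 was 0 of 65 reads (Wilson upper limit 5.58%, or 4.62% as 3 counts of 65). The intervals in Cl.3 and Cl.6 at Knockdown were 6.45% to 30.1% and 11.2% to 34.5%. It fell from 95.1% and 90.3% to 6.56% and 22.2% in R1 and R2. At Recovery it read 29.2%, 14.6% and 0% in the clones, 0 of 71 reads in Cl.9, with 60.6% in R1 and 55.9% in R2. It thus lay far from Baseline in all populations. The pair 703 bp from the 5′ end of TMCO4, in its promoter window, fell from 90.9% or more at Baseline to 17.5%, 14.8% and 13.4% in the clones (intervals within 5.92% to 32.5%) and to 33.3% and 18.9% in R1 and R2, and read 42.3%, 6.90%, 17.8%, 76.3% and 80.0% at Recovery.

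The pair in an intron of BPIFB1, which encodes a secreted airway protein, fell from 89.3% or more at Baseline to 22.2%, 28.6% and 0% in the clones and to 20.8% and 23.7% in R1 and R2. The value in Cl.9 was 0 of 47 reads (Wilson upper limit 7.56%, or 6.38% as 3 counts of 47). At Recovery it read 53.6%, 51.9% and 4.35% in the clones with 94.3% in R1 and 82.1% in R2. The low value of Cl.9 was kept, and the bulk populations were back near Baseline. By the fall left at Recovery over the clones, the RAB33B and TMCO4 pairs ranked first and second, followed by an intergenic pair 29777 bp from CDH6, a cadherin gene. That pair read 97.4%, 93.6% and 85.4% at Baseline, 52.9%, 39.3% and 4.17% at Knockdown and 18.2%, 38.1% and 1.54% at Recovery in the clones. In R1 and R2 it fell from 92.7% and 100% to 31.5% and 13.0% and returned to 86.7% and 92.7%.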

How the data were processed

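The 15 HCT116 libraries were whole-genome bisulfite libraries. The authors deposited raw counts per CpG (methylated reads and all reads, both strands of a CpG together) in 3 tables, aligned with the Meth10X pipeline on build hg38 and not filtered on coverage. How duplicates and mapping to repeats were handled was not given in the sources used here. The authors' domain lists (MethylSeekR for PMDs, LMRs and UMRs, bedtools 2.25.0 for HMDs, per the submitters' processing notes and the study's methods) were called per library, and the Baseline list of each population placed the CpGs. Groups were taken from the sample titles. The members, contexts and tests were chosen with earlier results of these data known.

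The distance to the nearest CpG, the flanking bases and the contexts were read from hg38, where all table positions were CpGs. Genes came from GENCODE release 44. A minimum of 5 reads per CpG in the libraries compared was required. Changes at Knockdown and Recovery were taken from each population's own Baseline, and summarised as mean ± SD over populations, CpGs not being replicates. Exact sign-flip permutation over populations and exact permutation of 3 against 2 populations were computed with Python 3.11.15 and numpy 2.4.6. Replicates are 3 clones or 2 bulk populations, so the spread of the latter may be technical.

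Counts were also summed per 100 kb window and distance class (5 or more CpGs, 50 or more reads per library), and tested with edgeR 4.0.16 in R 4.3.3 (glmQLFit and glmQLFTest, methylation design) fitting the 15 libraries jointly, blocked by population. limma 3.58.1 was an alternative. The block rests on the labels for the clones and on parallel plating in the study's methods for the bulk populations. Deviations of adjacent windows from the group mean correlated between libraries of 1 clone with r of 0.209 to 0.569, and of 1 bulk population with r of 0.00971 to 0.0252. No libraries of a group were duplicates, with a chi-square per window of 2.31 to 20.3. The difference estimates and the edgeR step were tested on simulated data.

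Single pairs were named by rule among runs of exactly 2 outside chromosome 8. They had at least 20 reads, summed over both CpGs, in every library and a Baseline mC of at least 0.85 in all populations. Named were the 3 with the smallest mean fall at Knockdown over the 5 populations and the 3 with the largest over the clones. The 3 with the largest fall left at Recovery over the clones were named too. The 8 most frequent contexts and the 10 outer flank combinations were named by frequency and in full. Of the pairs with the smallest fall, 2 are not reported here, nor are the longer sequences around the contexts.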

Additional observations from a re-analysis of the deposited data

Results flagged for a closer look

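Adjacent CpGs with a Baseline mC from 0.2 to 0.85 moved in opposite directions at Recovery in the 2 kinds of population. Cl.3, Cl.6 and Cl.9 changed by -0.691, -6.69 and -10.4 points, R1 by 3.53 and R2 by 2.18 points, and the means were 8.79 points apart. Near CpGs of the class showed the same split, with -4.67, -10.5 and -19.1 points in the clones and 3.16 and 2.09 points in the bulk populations. The difference between the groups was not tested, and the Baseline reads that set the class are also the start of each change.

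In the edgeR contrast of the Knockdown changes, 12411 windows of adjacent CpGs fell more under shDNMT1 than under shUHRF1 and 6 fell less, which is 49.5% lower against 62.7% over all distance classes. The count was 0 at adjacent CpGs and over all classes when the population block was left out, with a median log2 ratio change at adjacent CpGs of -1.06 against -1.02 with the block, and in this contrast shRNA, cloning and count table cannot be told apart.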

How the results depend on the processing

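Of 189 values computed under alternatives for 18 results, 15 were marked as shifted in size and none as reversed. Window counts and hypomethylated shares could not reverse direction, and the 15 shifted values were all among them. The adjacent-minus-near differences were marked for direction only, and all 125 of their values kept the direction of the reported value. The relative difference between shRNAs was likewise marked for direction only. An unmarked value could still move. Lower windows at Knockdown under shUHRF1 went from 18108 to 12857 without the block, and the hypomethylated share from 6.49% to 1.41% for a fall of 0.5. Leaving out 1 population gave 5.39 (without Cl.9) to 8.56 points for the highest class under shUHRF1 and 7.79 to 7.89 points under shDNMT1, 5.94 to 9.38 points for lone pairs under shUHRF1, 3.09 to 5.17 points at Recovery under shUHRF1 and -0.306 to -0.250 for the relative difference between shRNAs. With near CpGs at 9 to 19 bp, the highest class gave 12.4 and 12.8 points.

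The share of adjacent CpGs hypomethylated at Knockdown was 15.99% and 69.9% for a fall of 0.2 under shUHRF1 and shDNMT1, and 1.41% and 14.8% for a fall of 0.5. Over all highly methylated CpGs, the share ranged from 30.7% to 71.2% in the shUHRF1 clones and from 90.5% to 91.2% in the shDNMT1 populations for 0.2, and from 4.44% to 26.1% and 38.0% to 39.6% for 0.5. For windows of adjacent CpGs, the replicate block by population decided 2 counts. Without the block, 0 fell more under shDNMT1 in the contrast and 1661 were lower at Recovery under shUHRF1. Leaving out a population moved these counts between 1255 and 14846 and between 3639 and 9209, and gave 14751 to 19249 and 20934 to 24410 lower windows at Knockdown under shUHRF1 and shDNMT1. As shares of adjacent windows, against windows of all distance classes, these extremes were 5.01% against 4.08% (without R2) and 59.2% against 84.7% (without Cl.9) in the contrast, and 14.5% against 67.7% (without Cl.9) and 36.7% against 79.9% (without Cl.3) at Recovery under shUHRF1. At Knockdown they were 58.8% against 87.1% (without Cl.6) and 76.8% against 94.1% (without Cl.3) under shUHRF1, and 83.5% against 95.7% (without R2) and 97.4% against 99.4% (without Cl.9) under shDNMT1. With at least 10 CpGs and 200 reads, which leaves fewer windows, 10473 and 15161 were lower at Knockdown and 4509 at Recovery under shUHRF1, which are 65.4%, 94.7% and 28.2% of adjacent windows against 93.6%, 99.1% and 79.6% of all classes. Under shDNMT1 at Recovery, limma called 2 and leaving out a population 0 to 1. The cause of these shifts was not tested. Leaving out repeats could not be run, since the reference carried no repeat marking. Single pairs rest on as few as 20 summed reads per library, which limits their precision. A read over both CpGs counts for each, which makes their intervals too narrow.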
